A study of Saccharomyces cerevisiae with 16 samples.

Results

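The 52 yeast transcripts described here are those of 4000 nt or longer among the 5698 rows of the gene count table. A row was taken when its identifier matched a transcript of the deposited annotation and that transcript, from first to last base on sacCer3 (R64), spanned 4000 nt or more. The annotation gives a transcript for 4818 rows, with a median length of 1545.5 nt and a longest of 4999 nt. By its label it holds the longest transcripts with a full reading frame, from YPD, while the cells here grew in synthetic medium. A length is thus that of the longest annotated form, and the counted reads need not come from RNAs of that length. The other 880 rows have no annotated transcript, and 164 of them hold a RefSeq gene of 4000 nt or more. The giant genes of yeast are therefore outside the 52: REA1, a ribosome assembly ATPase whose gene spans 14730 nt, TRA1, TOM1, VPS13, IRA1, TOR1 and TOR2 all lie among those 164.

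The libraries measured RNAs that carry a 5′ phosphate (5′P sequencing, HT-5PSeq), with reverse transcription primed by oligo(dT) alone. All cells were of the BY4741 parent strain, cultured for 4 h at 30 °C in synthetic medium lacking uracil until the OD600 reached 0.7. The no-reporter cells carried the control plasmid POT1-ccdB. In the other 7 groups a low-copy plasmid held an mCherry gene between the RPS3 promoter and an RPS3 terminator, which was unmodified (WT) or had 3 insertion sites of 9 bp. In the names of the modified terminators N stands for a random sequence and A, H and T for motifs, giving modNNN, modNTN, modNAA, modNGG, modHNH and modHTH. The meaning of G was not given in the sources used here. No gene of the 52 was altered by the design. Each group had 2 libraries, but the second library held only 477 reads in modNGG, 267 in modHNH and 69 in modHTH and was left out, so these 3 groups rest on a lone library each. The other 13 libraries held from 1070844 to 2939907 reads. The labels do not state whether libraries within a group were grown separately. The p-values thus measure only how these libraries differ, and that spread may be technical.

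Eukaryotic mRNAs begin with a cap, and a 5′ phosphate appears when the cap is removed or the RNA is cut. In yeast the exonuclease Xrn1 then degrades such RNAs from their 5′ end, and it can follow the last translating ribosome. A 5′P library primed from the poly(A) tail therefore samples mostly decay intermediates that still have their tail, and a count is neither mRNA abundance nor a rate of decay. In bulk cultures fewer cells and less RNA per cell cannot be told apart.

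A long transcript was not always a long gene. In 40 of the 52, the RefSeq gene of the same name filled at least 50% of the transcript (71.1% to 97%, median 94.2%). These 40 are called long-gene transcripts below. Their genes span 3090 to 4548 nt, and the annotated transcript reached a median of 123 nt before the gene and 136 nt after it. They include RPO31, the largest subunit of RNA polymerase III (chrXV:539665-544379, minus strand, gene of 4383 nt), SPT6, a histone chaperone of transcription elongation (chrVII:720286-724955, plus strand, gene of 4356 nt), and STH1, the ATPase of the RSC chromatin remodeller (chrIX:117922-122208, plus strand, gene of 4080 nt). TCB2, a tricalbin that tethers the endoplasmic reticulum to the plasma membrane, had the longest stretch before its gene among the 40, 1236 nt that reach into TOP2, the gene of DNA topoisomerase II. TCB2 (4978 nt) and SNQ2 (4930 nt), a multidrug ABC transporter, were the longest of the 40.

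In 10 of the 52 the gene was short and filled 4.34% to 46.2% of the transcript. RPL43A, a protein of the large ribosomal subunit, had the longest annotated transcript of all, 4999 nt (chrXVI:649918-654916, plus strand) around a gene of 682 nt. That annotated transcript began 4248 nt before the gene, and its reads need not come from an RNA of that length. YDL085C-A (207 nt in 4772 nt), ECM19 (339 nt in 4777 nt), MRX19 (963 nt in 4217 nt) and SEC20 (1152 nt in 4714 nt), a SNARE of Golgi-to-ER transport, were, with RPL43A, the 5 with the shortest genes. The others were YMR155W, YML083C, ZRC1, a vacuolar zinc transporter, FCY2, the purine-cytosine permease, and DUS3, a tRNA dihydrouridine synthase. These 10 are called short-gene transcripts below. YAL004W and YGR190C have no entry in the RefSeq table used.

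A gene or annotated transcript of the same strand overlaps 9 of the 10 short-gene transcripts, 6 of the 40 long-gene transcripts (ADE6, COP1, MHP1, MSB2, SKI2 and TCB2), YAL004W and YGR190C. RPL43A overlaps TIF5, the gene of translation initiation factor eIF5, SEC20 overlaps ITR1, a myo-inositol transporter, and FCY2 overlaps HIS1 of histidine synthesis. DUS3 overlaps the bromodomain gene BDF1, YMR155W overlaps the nucleoporin gene NUP53, and ECM19 overlaps the small nucleolar RNA gene SNR34, while ZRC1, YDL085C-A and YML083C overlap the annotated transcript of a same-strand neighbour but not its gene. Genes of the opposite strand overlap 8 of the 10 and 5 of the 40. How reads in shared stretches were assigned, and whether strand was used, was not given in the sources used here. Values of all these transcripts can therefore hold reads of a neighbour, and their level is uncertain. RPL43A also has a near-identical paralogue, RPL43B, so its reads could be split between the copies.

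**Figure D1:**
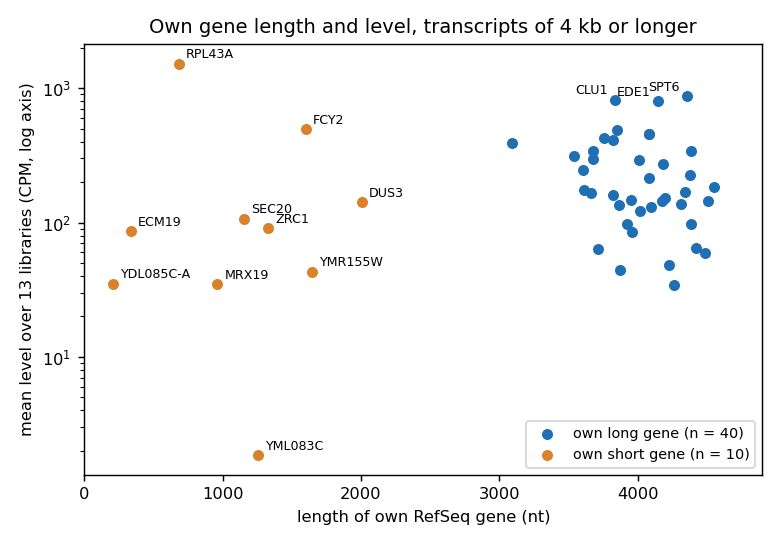
Length of the RefSeq gene (nt) against the mean level over 13 libraries (CPM, log axis) for the 50 transcripts of 4 kb or longer with a RefSeq entry. The 40 long-gene transcripts lie at 3090 nt and above, and the 10 short-gene transcripts at 2007 nt and below, with RPL43A highest of all at 1527 CPM.

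The level of the 52 is given as reads per 1000000 reads of the library (CPM), and per kb of transcript where genes are compared. Their median level was 149.7 CPM against 67.1 CPM over all rows. Per kb of transcript the order turned, with a median of 35.0 CPM per kb for the 52 against 45.4 over all rows with a transcript. That median was 32.5 for transcripts of 2 to 3 kb and 36.9 for those of 3 to 4 kb, so the 52 were not low beside these. It was 39.6 for the long-gene and 20.2 for the short-gene transcripts. RPL43A led with 305 CPM per kb. It was followed by CLU1, a protein of mitochondrial distribution that also associates with initiation factor eIF3 (200.0), SPT6 (186), EDE1, a scaffold of early endocytosis (178), and OSH2, an oxysterol-binding protein (119). FCY2 (113), ADE6 of purine synthesis (107), STH1 (106), SSD1, an mRNA-binding translational repressor (103), and UBP2, a ubiquitin-specific protease (102), completed the top 10. This order depends on the length used. Per kb of the RefSeq gene RPL43A had 2238 CPM, and FCY2 (309) and ECM19 (254.5) lay above CLU1 (214). RPL43A alone held 11.9% of the reads on the 52, and RPL43A, SPT6, CLU1 and EDE1 together 31.4%. YML083C (1.85 CPM), YAL004W (2.60 CPM) and YGR190C (9.86 CPM) were the lowest, and the other 49 had at least 10 reads in each of the 13 libraries.

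Transcripts on either side of the length limit had levels in one range. UBP2 (4019 nt), RPA135, the second largest subunit of RNA polymerase I (4033 nt), and TRS120, a subunit of a TRAPP tethering complex (4061 nt), were the shortest of the 52, with 410.0, 174 and 44.2 CPM. SLA1 (3970 nt), SCP160 (3964 nt) and MYO3 (3949 nt), just under the limit, had 342, 568 and 286 CPM. RPA135 and TRS120 lay below all of these. Over the 52, transcript length had no strong relation to level (Spearman's rho −0.14 for CPM and −0.20 for CPM per kb, across transcripts of the same libraries, which are not independent replicates).

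The share of each library's reads on the 52 transcripts ran from 1.12% to 1.49%. It was 1.17% and 1.18% in the no-reporter libraries, 1.12% and 1.19% in WT, 1.18% and 1.28% in modNNN, 1.34% and 1.27% in modNTN and 1.32% and 1.26% in modNAA. The lone libraries held 1.41% (modNGG), 1.44% (modHNH) and 1.49% (modHTH). All 3 lone libraries were above the other 10, which reached 1.34% at most. The 95% Wilson interval of the modHTH share was 1.47% to 1.51% and covers counting error only, not the spread between libraries. The sources used here do not say whether reads of the same molecule were collapsed, so it may be too narrow even for counting error. The no-reporter libraries differed 2.75-fold in depth and by little in this share.

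The share of the long-gene transcripts was highest in the lone libraries, and that of RPL43A together with the other short-gene transcripts was lowest there. The 40 long-gene transcripts held 0.836% of reads in the lowest library (WT 1) and 1.27% in the highest (modHTH), with 1.18% to 1.27% in the 3 lone libraries and 1.07% at most in the other 10. The 10 short-gene transcripts held 0.216% to 0.236% in the lone libraries and 0.242% to 0.316% in the other 10. RPL43A held 53.4% to 65.6% of the short-gene reads. Without it the other 9 held 0.0911% to 0.101% in the lone libraries and 0.0937% to 0.119% in the other 10, which overlap, and modHNH lay above both no-reporter libraries. RPL43A alone overlapped too, with 1449 CPM in modNGG against 1386 in WT 2 and 1339 in modNAA 2. The short-gene share thus stood apart only when RPL43A and the other 9 were summed. The long-gene share did not overlap between the lone libraries and the rest. Within modNNN the long-gene share was 0.859% in the first library and 1.02% in the second, so 2 libraries of one group differed by a sizeable part of the range over groups.

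**Figure D2:**
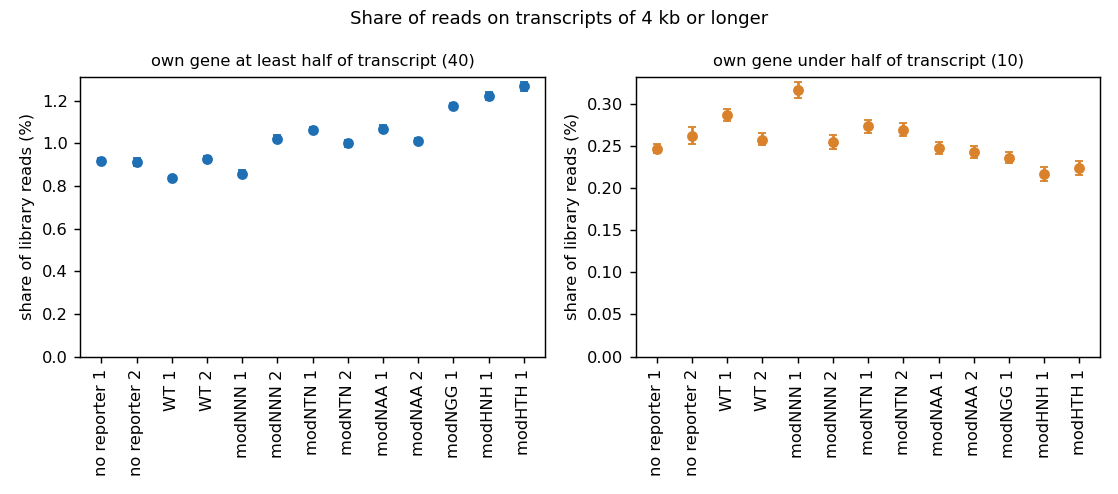
Share of library reads (%) on the 40 long-gene transcripts (left) and the 10 short-gene transcripts (right) in the 13 libraries, with 95% Wilson intervals for counting error. The modNGG, modHNH and modHTH libraries are the highest 3 on the left, from 1.18% to 1.27%, and the lowest 3 on the right, from 0.216% to 0.236%, which no longer holds without RPL43A (0.0911% to 0.101% against 0.0937% to 0.119%).

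The rest of the annotation showed the same ordering by length. In the lone libraries annotated transcripts under 1 kb held 12.1% to 12.5% of reads against 12.7% to 14.1% in the other 10, and those of 1 to 2 kb held 52.2% to 52.5% against 53.4% to 55.9%. Transcripts of 2 to 3 kb held 17.7% to 17.9% against 16.3% to 17.6%, and those of 3 to 4 kb held 5.99% to 6.14% against 4.94% to 5.62%. The 164 long genes with no annotated transcript held 4.60% to 5.04% against 3.36% to 4.31%. Transcripts of 2 to 4 kb thus went the same way as the long-gene transcripts, and those under 2 kb the opposite way. Taken over all rows tested, a doubling of length went with a log2 CPM deviation between −0.11 (modNNN 1) and 0.16 (modHTH), with 0.09 in modNGG and 0.16 in modHNH. The part of RNA integrity, library preparation or the plasmid in this trend was not tested.

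**Figure D3:**
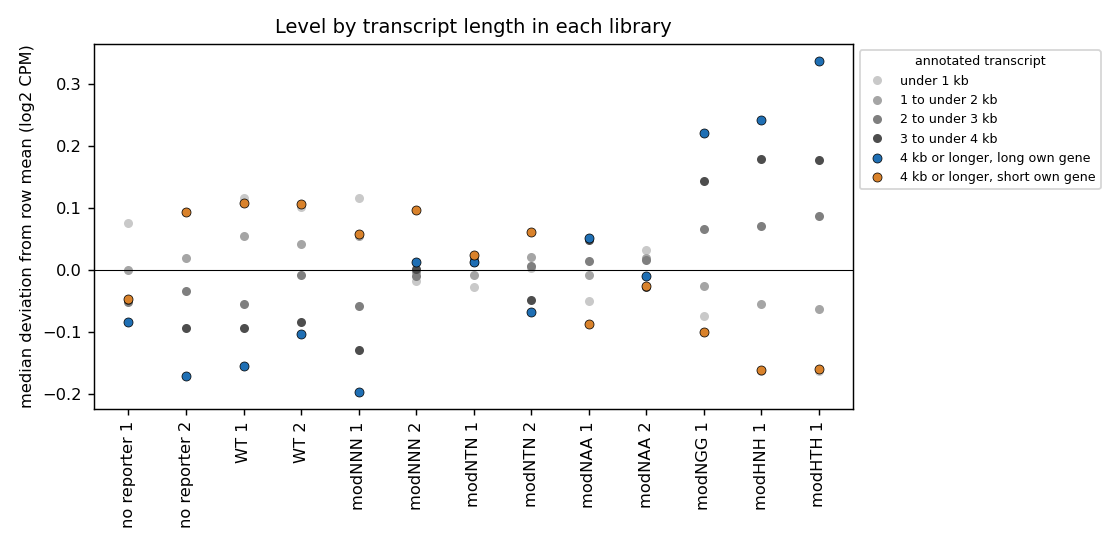
Median deviation from each row's mean over the 13 libraries (log2 CPM) for 4 length classes of annotated transcripts (grey, darker for longer) and for the long-gene (blue) and short-gene (orange) transcripts of 4 kb or longer. Long-gene transcripts lie lowest in modNNN 1 at −0.20 and highest in modHTH at 0.34, where short-gene transcripts lie at −0.16, near transcripts under 1 kb.

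To ask which groups differed, 50 of the 52 transcripts had enough counts to be tested: 40 long-gene, 9 short-gene and YGR190C. YAL004W and YML083C did not pass the filter on low counts. edgeR's quasi-likelihood test was run over all 5268 host rows that passed, and a transcript was called at an adjusted p (Benjamini-Hochberg over those rows) under 0.05. No transcript of the 50 was called in any of 8 comparisons of groups or in the test for any difference among the 8 groups. The comparisons share libraries: all comparisons with a no-reporter side use the same 2 libraries, and all comparisons with modNNN use the same other 2.

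In modHTH against modNNN, the comparison with the highest median over the long transcripts, edgeR called 0 of the 50 (0.0569% of all rows were called). At an unadjusted p under 0.05, 18 of the 50 were higher, against 10.3% of all rows, and none was lower, against 9.21%. All 18 were long-gene transcripts. DESeq2 called 3 of the 34 of these transcripts to which it gave an adjusted p, all higher: CLU1, COP1 and STH1 (2.7% of the rows with an adjusted p were called). Of the 40 long-gene transcripts 39 lay above 0, with a median log2 fold change of 0.44, and UBP2 lay at −0.10. Of the 9 short-gene transcripts 1 lay above 0, YDL085C-A at 0.48, with a median of −0.25. Over all rows 49.1% lay above 0 and the median was −0.01. The median was −0.22 for transcripts under 1 kb, −0.10 for 1 to 2 kb, 0.11 for 2 to 3 kb, 0.25 for 3 to 4 kb and 0.40 for the long genes with no annotated transcript. Across the 49 tested transcripts with a RefSeq gene, the log2 fold change had a Pearson correlation of 0.55 with log2 gene length. The Spearman correlation was 0.37 with gene length, and −0.11 with transcript length over all 50. These values only describe libraries that all the points share. Gene length ran from 207 to 4548 nt, but the selection held transcript length to 4019 to 4999 nt, so the 2 Spearman values cannot be set against each other. With single libraries left out, the median log2 fold change over the 50 ran from 0.27 to 0.44. The number called depended on which modNNN library was kept, but each such fit sets 1 library against 1. The first modNNN library stood lower than the second by a median log2 of 0.20 over the long-gene transcripts. With each library's trend of level on length removed, the median over the 50 was 0.01. That trend was fitted over rows that include these transcripts, so a median near 0 is in part built in.

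**Figure D4:**
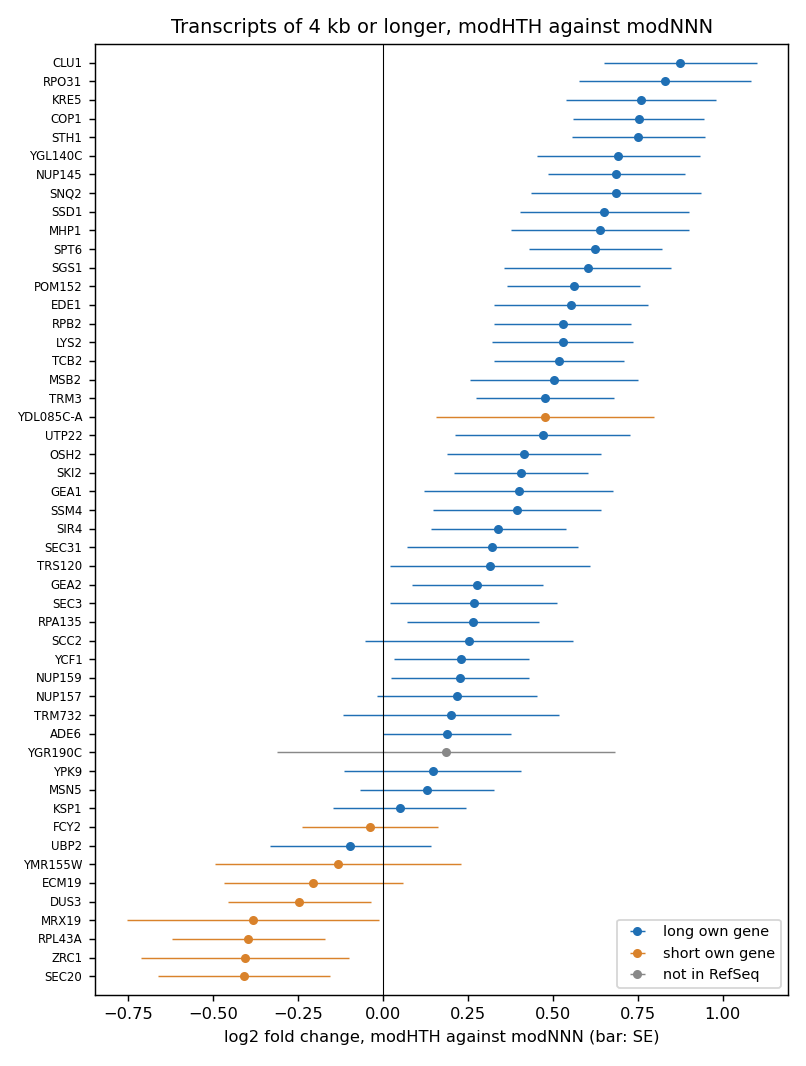
Log2 fold change of modHTH (1 library) against modNNN (2 libraries) for the 50 tested transcripts, in order of size, with the standard error of the fit as bars. Blue long-gene transcripts lie above 0 except UBP2, orange short-gene transcripts lie below 0 except YDL085C-A, and none passed the adjusted test of edgeR.

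CLU1 had the largest fold change of modHTH over modNNN. Its level was 761 and 656 CPM without reporter, 600 and 632 in WT, 561 and 775 in modNNN, 903 and 739 in modNTN, 884 and 698 in modNAA, 1154 in modNGG, 1108 in modHNH and 1183 in modHTH. The 3 lone libraries were above all other 10. The log2 fold change of modHTH over modNNN was 0.88 with a standard error of 0.23, and the adjusted p was 0.108 in edgeR and 0.0373 in DESeq2.

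COP1, the alpha subunit of the COPI vesicle coat (chrIV:194414-198481), went from 177 CPM in WT 1 to 350 CPM in modHTH. It had 205 and 225 CPM in modNNN, 323 in modNGG and 313 in modHNH, and no other library exceeded 260 CPM. The lone libraries again did not overlap with the rest. Its log2 fold change of modHTH over modNNN was 0.75 (standard error 0.19, adjusted p 0.108 in edgeR and 0.0453 in DESeq2).

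STH1 had 330 and 433 CPM in modNNN, 575 in modNGG, 545 in modHNH and 620 CPM in modHTH, with 362 and 399 without reporter. The modNTN and modNAA libraries, from 464 to 481 CPM, lay between these groups. Its log2 fold change of modHTH over modNNN was 0.75 (standard error 0.20, adjusted p 0.112 in edgeR and 0.0373 in DESeq2). SPT6, like STH1 a protein of chromatin, had 683 and 840 CPM in modNNN and 1134 in modHTH (log2 0.63, adjusted p 0.13 in edgeR).

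KRE5, needed for beta-1,6-glucan of the cell wall, had 105 and 124 CPM in modNNN, 148 in modNGG, 183 in modHNH and 187 in modHTH. SSD1 had 314 and 471 CPM in modNNN, 487 in modNGG, 649 in modHNH and 596 in modHTH. In KRE5 the modNNN libraries lay close together, while in SSD1 they lay far apart, the second of them near modNGG. The log2 fold changes of modHTH over modNNN were 0.76 for KRE5 and 0.65 for SSD1, with adjusted p of 0.117 and 0.172 in edgeR.

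The 3 lone libraries were all above the other 10 in 12 of the 50 transcripts, against 6.76% of all rows: CLU1, COP1, KRE5, NUP145, OSH2, RPB2, SGS1, SPT6, SSD1, STH1, TCB2 and YGL140C. All 12 were long-gene transcripts. The same held for 17.8% of transcripts of 3 to 4 kb and 26.9% of the long genes with no annotated transcript, against 24% of the 50. It was thus not particular to the 50. The 3 lone libraries were all below the other 10 in 0 of the 50, against 7.65% of all rows. That share was 3.48% for transcripts of 3 to 4 kb and 1.25% for the long genes with no annotated transcript. This grouping follows the near-empty second libraries and was made after the values were seen. A lone library was the highest of all 13 in 29 of the 40 long-gene transcripts and in 1 of the 9 short-gene transcripts, against 28.5% of all rows. For the 40 this was 72.5%, near the 71.9% of the long genes with no annotated transcript, and transcripts of 3 to 4 kb had 52.6%.

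In modNGG against modNNN edgeR called 0 of the 50 (0.0% of all rows called), and 9 were higher and 2 lower at an unadjusted p under 0.05 (7.84% and 6.61% of all rows). DESeq2 called 0 of the 37 of the 52 to which it gave an adjusted p there (0.0466% of its rows with an adjusted p). The median log2 fold change was 0.28 over the 40 long-gene and −0.25 over the 9 short-gene transcripts. In modHNH against modNNN edgeR called 0 of the 50 (0.0% of all rows). There 13 were higher and 1 lower at an unadjusted p under 0.05 (8.09% and 7.73% of all rows), and the medians were 0.32 and −0.18. DESeq2 called 0 of the 20 of the 52 to which it gave an adjusted p (0.431% of its rows with an adjusted p). The rest of the 52 had no adjusted p in DESeq2 and could not be called. With single libraries left out, the median log2 fold change over the 50 ran from 0.17 to 0.34 in modNGG and from 0.18 to 0.31 in modHNH. CLU1 was 0.82 higher on the log2 scale in modNGG and 0.75 higher in modHNH than in modNNN, and edgeR gave adjusted p of 0.209 and 0.200.

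Of the short-gene transcripts, RPL43A had the lowest log2 fold change in modHNH against modNNN and SEC20 the lowest in modNGG. RPL43A had 1529 and 1681 CPM without reporter, 1799 and 1386 in WT, 2075 and 1502 in modNNN, 1603 and 1601 in modNTN, 1420 and 1339 in modNAA, 1449 in modNGG, 1155 in modHNH and 1308 in modHTH. The lowest values were those of modHNH and modHTH, but the modNGG library lay above the modNAA libraries, so the lone libraries overlapped with the rest. Its log2 fold change against modNNN was −0.60 in modHNH and −0.40 in modHTH, with adjusted p of 0.237 and 0.337 in edgeR. SEC20 had 64.8 CPM in modNGG and next lowest modHTH, below the other 11 libraries at 95.5 to 136 CPM, while modHNH at 111 CPM lay among these. In modNGG it was −0.90 on the log2 scale against modNNN, with an adjusted p of 0.209 in edgeR. ECM19 had 88.1 and 90.7 CPM in modNNN and 59.5, 87.5 and 74.7 in modNGG, modHNH and modHTH, and YDL085C-A had 27.7 and 40.4 against 35.5, 39.5 and 45.8 CPM. MRX19 had 36.1 and 39.7 CPM in modNNN and 28.0 in modHTH. FCY2 had 509 and 485 CPM in modNNN and 446, 514 and 466 in modNGG, modHNH and modHTH, with no side apart from the other. The short-gene transcripts did not share 1 pattern over the lone libraries.

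**Figure D5:**
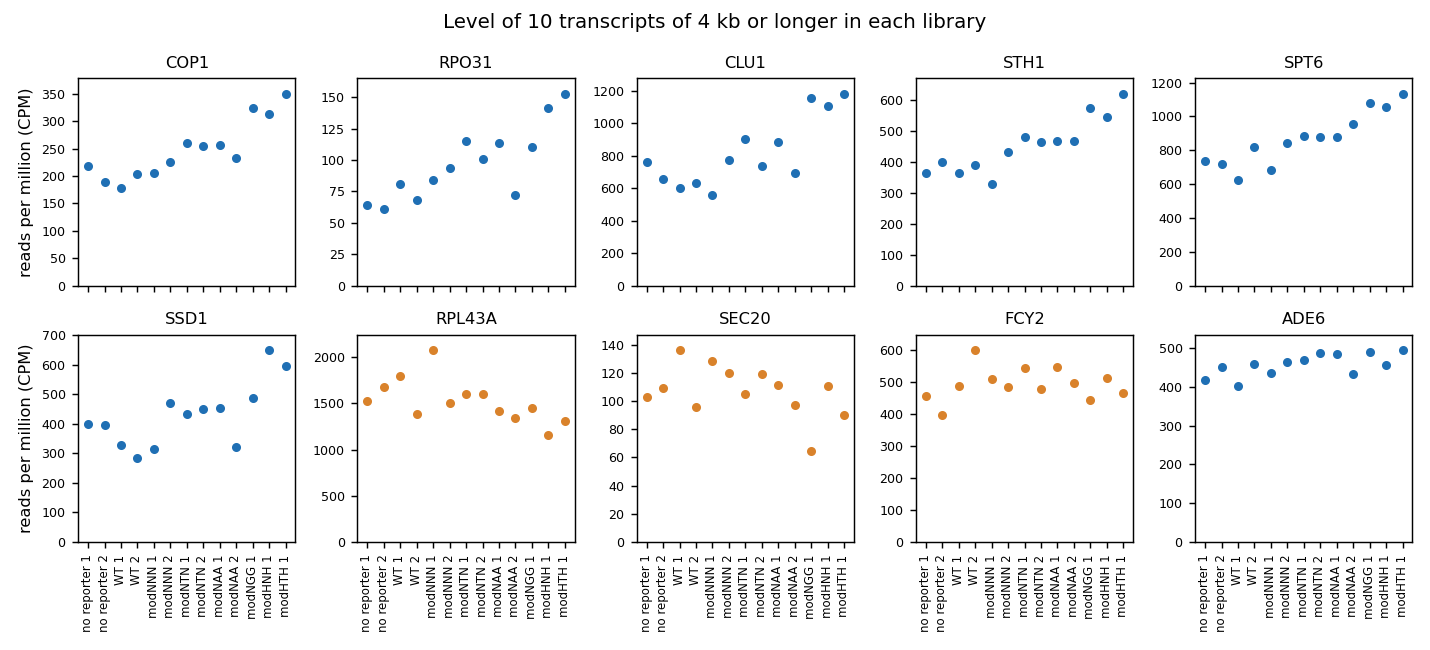
Level in CPM in each of the 13 libraries for 6 long-gene transcripts and ADE6 (blue) and 3 short-gene transcripts (orange), each axis starting at 0. COP1, CLU1, STH1, SPT6 and SSD1 are highest in the 3 lone libraries at the right, while ADE6 stays between 401 and 495 CPM.

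The comparison of modNTN with modNNN bears on the T motif, and that of modNAA with modNNN on the A motif. Both have 2 libraries on each side. edgeR and DESeq2 called 0 of the 50 in either comparison (0.0% of all rows with either tool). At an unadjusted p under 0.05, edgeR had 0 transcripts in modNTN (1.92% of all rows) and 1, RPL43A, lower in modNAA (6.21% of all rows in both directions). The median log2 fold change of the long-gene transcripts was 0.10 in modNTN and 0.12 in modNAA. Over all 50 the median was 0.07 and 0.10, and without modNNN replicate 1 it turned to −0.01 and −0.02, so it has no settled sign. RPL43A had a log2 fold change of −0.41 in modNAA (adjusted p 0.761 in edgeR).

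In modNNN against WT, which compares random inserts with the unmodified terminator, edgeR and DESeq2 called 0 of the 50 (0.019% of all rows in edgeR, 0.0353% in DESeq2), and 0 had an unadjusted p under 0.05 in edgeR, against 5.41% of all rows. Log2 fold changes ran from −0.29 to 0.36, the highest being that of EDE1, with a median of 0.03 that ran from −0.06 to 0.12 with single libraries left out. In WT against no reporter, edgeR called 0 of the 50 (0.038% of all rows). DESeq2 called 0 of the 20 of the 52 to which it gave an adjusted p (1.29% of its rows with an adjusted p). In edgeR 1 of the 50 had an unadjusted p under 0.05, against 8.94% of all rows. This was ZRC1, with 63.3 and 62.6 CPM without reporter and 83.6 and 126 CPM in WT. Both WT libraries were above both no-reporter libraries, and the log2 fold change was 0.69 with an adjusted p of 0.403 in edgeR.

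The mean of the 7 reporter groups against no reporter addresses what the reporter plasmid itself goes with. RPO31 had the lowest adjusted p of the 50. Its level was 63.95 and 60.7 CPM without reporter, and between 68.1 and 153 CPM in the 11 reporter libraries, with the highest values in modHNH (141) and modHTH (153). All reporter libraries were above both libraries without reporter, and the closest, WT 2 at 68.1 CPM, exceeded them by little. The log2 fold change was 0.73 with a standard error of 0.17 and an adjusted p of 0.0745 in edgeR, and 0.72 with an adjusted p of 0.0398 in DESeq2, which called 1 of the 40 of these transcripts with an adjusted p (2.32% of its rows with an adjusted p). The edgeR call changed when single libraries were left out: RPO31 was called without either WT library, without either modNNN library and without modNAA replicate 2. It was also called with replicate as a block (log2 0.70), with library totals, with no filter on low counts and with all 16 libraries.

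Over the 50 transcripts edgeR called 0 in this comparison (0.38% of all rows), and 11 were higher and 1 lower at an unadjusted p under 0.05 (8.2% and 9.98% of all rows). The lower one was YMR155W, at −0.46 on the log2 scale with an adjusted p of 0.228. The reporter libraries were all above both no-reporter libraries in 4 of the 50, against 4.08% of all rows: RPO31, TCB2, NUP157 and ZRC1. They were all below in 0, against 2.33%. The median log2 fold change was 0.16 over the 50 and 0.02 over all rows. It rested on the lone libraries: over the groups with 2 usable libraries it was 0.03. With the length trend removed it was 0.00, a value near 0 that is in part built into the removal.

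The test for any difference among the 8 groups called 0 of the 50 in edgeR (0.019% of all rows), with 19 at an unadjusted p under 0.05 (19.2% of all rows). DESeq2 called 7 of the 43 of these transcripts with an adjusted p: CLU1, COP1, RPO31, SPT6, SSD1, STH1 and YGL140C (6.86% of the rows with an adjusted p). The first of the 50 ranked 54 of 5268 rows in edgeR. The 10 lowest p-values were those of COP1 (adjusted p 0.0765 in edgeR), RPO31 (0.0778), CLU1 (0.0814), STH1 (0.0999), KRE5, YGL140C, SSD1, SGS1, a RecQ DNA helicase, SNQ2 and TRM3, a tRNA methyltransferase (0.122). SGS1 had 212 CPM in modHTH against a mean of 144 CPM (SD 51.3, n = 2) in modNNN, and SNQ2 had 208 against 134 CPM (SD 9.94, n = 2).

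Proteins that work together were set side by side from 18 lists of yeast pathways and complexes known for large proteins. They name 174 genes, of which 170 have a row, 20 are among the 52 transcripts, and 0 were called in any comparison by edgeR. In modHTH against modNNN 148 of the 170 lay above 0, and in reporter against no reporter 137 of the 170 did, against 49.1% and 52.7% of all rows.

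RNA polymerases put 3 large subunits among the 52. RPB2, the second largest of polymerase II, had 311 and 368 CPM in modNNN and 472 in modHTH, a log2 fold change of 0.53. RPA135 of polymerase I had 180 and 156 CPM in modNNN and 194 in modHTH (log2 0.27), and RPO31 of polymerase III had 83.96 and 94.0 against 153 (log2 0.83). The adjusted p in edgeR was 0.175 for RPB2, 0.466 for RPA135 and 0.123 for RPO31. The RPB2 and RPO31 values of modHTH were the highest of the 13 libraries, and so was that of RPA135, by a narrow margin over modNGG at 191 CPM.

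The nuclear pore put 4 proteins among the 52: the scaffold nucleoporins NUP157 and NUP145, the cytoplasmic-side NUP159 and the membrane ring protein POM152. In modHTH against modNNN their log2 fold changes were 0.69 (NUP145), 0.56 (POM152), 0.23 (NUP159) and 0.22 (NUP157), with adjusted p from 0.117 to 0.628 in edgeR. NUP145 had 125 and 145 CPM in modNNN and 210 CPM in modHTH, the highest library. All 4 lay above 0 without passing the test, and so did 39 of the 40 long-gene transcripts.

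GEA1 and GEA2, paralogous exchange factors for Arf GTPases of the Golgi, are the only paralogue pair of those listed with both copies among the 52. GEA2 stood at 227 CPM and GEA1 at 48.4 CPM on transcripts of 4534 and 4443 nt. Their log2 fold changes in modHTH against modNNN were 0.28 and 0.40, with adjusted p of 0.436 and 0.438 in edgeR. Neither passed the test.

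Metabolic enzymes and transporters covered a wide range. ADE6 had the lowest coefficient of variation over the 13 libraries among the 49 transcripts with 10 or more reads throughout, 6.39%, and ranged from 401 CPM in WT 1 to 495 CPM in modHTH. LYS2, the aminoadipate reductase of lysine synthesis, was at 0.53 on the log2 scale in modHTH against modNNN (adjusted p 0.181 in edgeR). YCF1, the vacuolar transporter of glutathione conjugates, was at 0.23 and YPK9, a vacuolar P-type ATPase, at 0.15. SKI2, the helicase that feeds mRNA to the exosome for 3′ to 5′ decay, was at 0.41, the ER ubiquitin ligase SSM4 at 0.39 and the COPII coat protein SEC31 at 0.32, with adjusted p from 0.266 to 0.496 in edgeR for these 3. RPO31 had the highest coefficient of variation among the same 49, 30.1%.

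The labels were checked in the same 13 libraries. The chromosomal markers URA3 and MET17, deleted in BY4741, had 0 reads in each, LEU2 had 0 to 2 reads, and HIS3, of which BY4741 keeps a part, had 198 to 582. Native RPS3 ran from 3103 to 4029 CPM. These rows bear on the strain and not on the plasmids. The reporter row had 2216 to 18108 reads in the 11 reporter libraries and no value in the 2 without reporter, and the URA3 row of the plasmid had 5656 to 15560 reads in the 11 and 0 in the 2, whose cells were also grown without uracil. The near-empty libraries held 5, 5 and 1 reads on the 52 transcripts.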

How the data were processed

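HT-5PSeq libraries of Saccharomyces cerevisiae were used as deposited: in the deposited gene table each value is a raw count of reads on a transcript, a whole number with no normalization, as the values themselves show. Per the submitters' processing notes, the tools were HISAT2, SAMtools, featureCounts, cutadapt, bedtools, FastQC and MultiQC, and the genome was sacCer3 (R64). Their versions were not given in the sources used here, nor were settings. Per the file headers the annotation came from rtracklayer 1.42.1. The position tables were not used here, since they cover none of the 52 transcripts.

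Columns with fewer than 1000 reads were left out, which leaves 13 of 16 libraries with 1070844 to 2939907 reads. CPM divides by all reads of a library, plasmid rows included. The fit used host rows in edgeR 4.0.16 (R 4.3.3; TMM, filterByExpr, glmQLFit, glmQLFTest) with group as the only term, so lone libraries are taken to vary as much as the rest. Benjamini-Hochberg adjustment ran over 5268 rows. DESeq2 1.42.0 was the alternative, and its missing adjusted p stayed missing. Deviations by length use log2 CPM with a prior count of 2. Rows without a transcript entered length trends with their RefSeq gene length, a genomic span with introns, from the R64 table, which matched 5550 of 5696 host rows. On counts simulated with 2-fold changes in 200 genes, the fit recovered 94.5% (reporter against no reporter, 5245 genes, 8 false calls), 78% (modNNN against WT, 5253 genes, 8 false) and 57% (modHTH against modNNN, 5249 genes, 5 false). Only rows above a minimum mean count were changed, genes were drawn independently, and no trend on length was simulated.

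Other settings tried were library totals or RLE size factors, no filter, a replicate block, all 16 libraries, groups with 2 usable libraries, each library left out, a length trend removed, and other limits or measures of length. The transcripts and lists were chosen with earlier results of these data known. The split by own gene length was made after the files were seen, from the annotation alone. Named genes were the 5 longest, the 10 highest per kb, 3 on each side of the limit, the 10 lowest p-values of the 8-group test, the 2 highest in each list, the paralogue pair and the 5 shortest own genes. Any others were named after their values were seen. No sequences are printed.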

Additional observations from a re-analysis of the deposited data

How the results depend on the processing

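Lone libraries limit these results: modNGG, modHNH and modHTH have 1 library each. In simulated counts a 2-fold change was recovered in 57% of the changed genes for modHTH against modNNN and in 78% for modNNN against WT. The modNGG and modHNH comparisons were not simulated. The largest log2 fold change of the 50 in modHTH against modNNN, 0.88, was below 2-fold, and no trend on length was simulated. These rates thus do not give the power for the 50. The number of the 50 transcripts called changed as follows. In reporter against no reporter it was 1, RPO31, with DESeq2, library totals, no filter on low counts, a replicate block and all 16 libraries, and from 0 to 1 with single libraries left out. In modNGG it was 1 (SEC20) with all 16 libraries and from 0 to 6 with single libraries left out. In modHNH it was 1 (MHP1) and from 0 to 11, and in modHTH it was 3 with DESeq2, 2 (KRE5 and RPO31) with all 16 libraries, and from 0 to 13. The highest of each came without modNNN replicate 2. The test among 8 groups gave 7 with DESeq2, 1 with library totals, 1 with no filter, 9 with all 16 libraries and from 0 to 13 with single libraries left out (8 without modNNN replicate 1, 13 without modNNN replicate 2). WT against no reporter, modNNN against WT, modNTN and modNAA stayed at 0 under all settings run. Why these counts moved was not tested.

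The mean share of reads on the 52 transcripts, 1.28%, was 3.20% with a limit of 3500 nt (124 rows), 4.62% by RefSeq gene length (186 rows, of which 22 are shared), 1.58% without the 50 highest rows, and 1.02% for the long-gene transcripts alone, a setting chosen after seeing the data. Leaving RPL43A out of the short-gene share, which took its mean from 0.256% to 0.104%, was also chosen after seeing the data. In each of these shares except the short-gene ones WT 1 was lowest, and modHTH was highest except by RefSeq gene length, where modHNH was. The short-gene share without RPL43A was lowest in modNGG (0.0911%) and highest in WT 2 (0.119%). No transcript reaches 5000 nt, so that limit was not run. The sign of CLU1 in reporter against no reporter turned to −0.058 and that of SSD1 to −0.140 with the groups of 2 usable libraries, and SSD1 turned to −0.015 with the length trend removed. With that trend removed the medians of the 50 lay between −0.06 and 0.02 in the comparisons against modNNN. The trend was fitted over rows that include the 50, so medians near 0 are in part built in.

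Whether replicate numbers pair the libraries was not settled: of 10 pairs of groups, 5 had a correlation of deviations over 0.1, with a range of −0.31 to 0.32. With replicate as a block the call in reporter against no reporter was 1, RPO31 (log2 0.70), and the other 8 tests stayed at 0.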
